A study of Mus musculus with 10 samples.

Results

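The unfolded protein response and the integrated stress response were examined through 10 genes in neutrophils taken from mouse squamous cell carcinomas. The genes are Xbp1, Atf4, Atf6, Ern1, Ddit3, Trib3, Hspa5, Dnajb9, Herpud1 and Pdia4, found by symbol among the 55385 mouse genes of the deposited count table. Tumours were grown from grafted parental cells with low Sox2 (Sox2low, the control) or from cells with high Sox2 (Sox2Hi), a transcription factor of stem cells. All hosts were CatchupIVM-red mice, in which cells that have expressed the neutrophil gene Ly6g carry a red Tomato reporter, and Tomato+ cells were collected. Tumours were naive, meaning untreated, or treated with anti-PDL1, an antibody against the ligand of the checkpoint receptor PD-1, together with a CD40 agonist. The study asked whether Sox2 in tumour cells changes how tumour neutrophils respond to interferon. Control tumours gave 3 naive and 2 treated libraries, and Sox2Hi tumours again 3 and 2. The sample descriptions also carry the tag C57 in all groups and the tag GFP for the control grafts only, neither of which is explained further. The labels do not say whether libraries came from separate mice. Reads of Ddx3y, a gene of the Y chromosome, numbered 4 to 8 in 1 library of each group and 1007 to 6618 in the other libraries. Each group thus drew on more than 1 mouse, but the number of mice is not known. The p-values measure the spread between these libraries, which may in part be technical.

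Proteins that enter the endoplasmic reticulum (ER) are folded there, and unfolded protein is sensed by the membrane proteins IRE1 (from Ern1), PERK (from Eif2ak3) and ATF6. IRE1 splices Xbp1 mRNA so that it encodes an active transcription factor, ATF6 is cut free to enter the nucleus, and PERK phosphorylates the translation factor eIF2alpha. Kinases that sense amino acid shortage, haem shortage or viral RNA phosphorylate the same factor, and this shared branch, which favours translation of Atf4, is the integrated stress response. Xbp1 is known to be needed for secretory cells such as plasma cells and eosinophils. Much of the response is set after transcription, and counts per gene show neither the splicing of Xbp1 nor the phosphorylation of eIF2alpha.

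Library totals ran from 13815734 to 22986193 counts. Values below are in CPM, a gene's share of the counts of its library on the usual counts-per-million scale, adjusted by factors taken from 11274 genes whose mean reached 5 CPM. The summed level of 20 neutrophil marker genes was 14082 to 22808 CPM in naive control, 48024 to 50691 in treated control, 13818 to 20462 in naive Sox2Hi and 24274 to 24886 in treated Sox2Hi libraries. None of these 20 genes was at 0 in all libraries, but Ly6g itself was low, between 1.62 and 18.3 CPM. The 2 treated control libraries therefore stood apart from the other 8 in the markers of the labelled cell type. They also had reads on fewer genes, 40276 and 41406 against 44833 to 48020. The sum of 11 T and NK cell genes was likewise higher after treatment, at 51.5 to 86.3 CPM in naive control, 146 to 465 in treated control, 35.5 to 111 in naive Sox2Hi and 172 to 245 in treated Sox2Hi libraries. A list of 12 macrophage and monocyte genes summed to 756 to 1164, 1238 to 1858, 1171 to 1578 and 920 to 1866 CPM in that order, so that its Sox2Hi groups overlapped. Within it Ly6c2, singled out after its values were seen, was at 15.3 to 27.7, 360 to 513, 13.0 to 23.1 and 124 to 178 CPM. Ccr2 (26.1 to 76.0, 170 to 245, 32.7 to 53.4 and 63.9 to 196 CPM) was likewise higher in treated than in naive libraries of both grafts without overlap. So was Csf1r (11.7 to 17.1, 28.5 to 34.9, 16.1 to 20.2 and 26.1 to 38.0 CPM). Other genes of the list, such as Apoe and Mrc1, overlapped between treated and naive libraries in both grafts. Sums of 6 erythroid genes (577 to 1494, 52.6 to 320, 272 to 570 and 24.7 to 62.2 CPM) and of 7 mast cell and basophil genes (37.9 to 228, 9.23 to 28.8, 53.9 to 97.8 and 28.7 to 62.2 CPM) were lower after treatment, with an overlap of the Sox2Hi groups in the second. A list of 12 keratinocyte genes summed to 1126 to 3116, 840 to 1785, 1506 to 1804 and 1009 to 1608 CPM in the same order, with overlap between naive and treated libraries in both grafts. The libraries thus also held RNA of epithelial or tumour cell genes. The part of these cell types in the results below was not tested. In bulk RNA, fewer cells of a type and less RNA per cell cannot be told apart. Reads over olfactory and vomeronasal receptor genes, taken as silent, gave an expected background of 4.29% to 7.15% of counts in naive control, 1.25% to 1.47% in treated control, 3.16% to 3.18% in naive Sox2Hi and 3.34% to 4.22% in treated Sox2Hi libraries.

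The 10 genes covered a wide range of levels. Per kb of exon, which allows genes to be compared, Hspa5 was the highest in naive control tumours at 489 ± 33 CPM per kb (SD, n = 3). Dnajb9 followed at 94.3 ± 22, Herpud1 at 59.8 ± 7.6, Ddit3 at 38.3 ± 5.0 and Xbp1 at 38.2 ± 4.4 CPM per kb. Pdia4 was at 20.5 ± 5.1 and Atf4 at 19.5 ± 1.7 CPM per kb. Neither Ddit3 and Xbp1 nor Pdia4 and Atf4 differed beyond their spread. The sensor genes were low, with Atf6 at 2.12 ± 0.12 and Ern1 at 0.710 ± 0.026, and the pseudokinase gene Trib3 was the lowest of the 10 at 0.465 ± 0.022 CPM per kb. In treated control tumours Ddit3 stood above Herpud1, at 171 ± 2.9 against 95.2 ± 2.0 CPM per kb (SD, n = 2). The expected background equalled 43.1% of the reads of Trib3, 38.0% of those of Ern1, 10.5% of those of Atf6 and at most 1.29% of those of the other 7 genes.

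**Figure D1:**
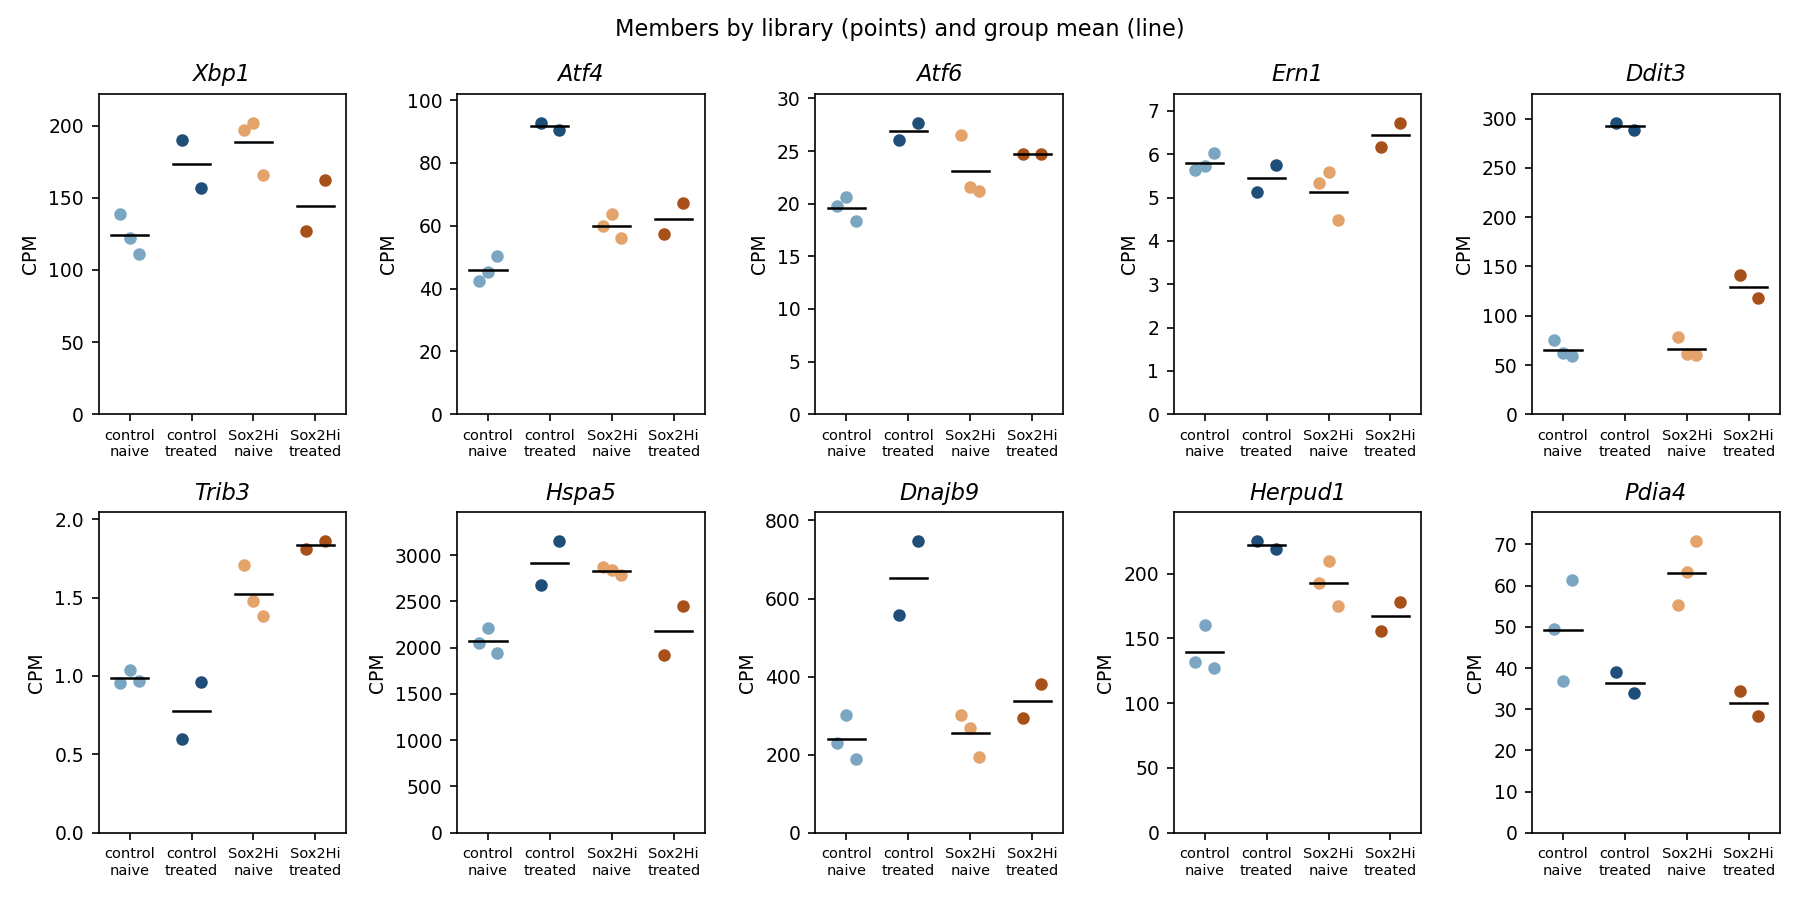
CPM of the 10 genes (vertical axes, each from 0) in every library, as points, with the mean of each group as a line. Ddit3, Atf4 and Dnajb9 lie higher in the 2 treated control libraries than in all other libraries.

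Under the scaling used and with all libraries in the fit, treatment of control tumours was the comparison with the most calls among these genes. Of the 10, 7 rose and none fell at an adjusted p under 0.05 (edgeR quasi-likelihood test, Benjamini-Hochberg adjustment over 29648 genes). Ddit3 rose most, 4.46-fold, and Dnajb9 2.71-fold, Atf4 1.99-fold, Herpud1 1.59-fold, Hspa5 1.41-fold, Xbp1 1.40-fold and Atf6 1.37-fold followed. Directions depended on the scaling: by library totals only, with no scaling factors, 2 genes were called higher, Ddit3 and Dnajb9, and 3 lower. These 3 were Ern1 (-0.73, edgeR adjusted p = 0.0073), Trib3 (-0.95, 0.023) and Pdia4 (-1.08, 0.0027). By library totals 11.5% of genes of at least 5 CPM were called higher and 55.9% lower. The background of calls was high: 48.6% of all genes tested were called, and among genes of at least 5 CPM 28.0% were called higher and 27.4% lower. The median log2 fold change of the 10 genes was 0.49, against -0.05 over the 11270 tested genes of at least 5 CPM. Abundant genes moved as a class, however: over 1481 genes of at least 100 CPM the median was 0.67, with 59.8% called higher and 8.71% lower. Of the 5 members in that class, Ddit3 and Dnajb9 were above this median, Herpud1 was at it, and Hspa5 and Xbp1 were below it. The class was set by the mean over all 10 libraries, so treated values help to admit a gene. Ddit3 reached it only through treated libraries, with group means of 65.5 (control) and 66.4 CPM (Sox2Hi) when naive and 292 and 129 when treated. The class is therefore no neutral reference for Ddit3.

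Ddit3 encodes CHOP, the transcription factor that links prolonged stress to cell death (chromosome 10, 127290774 to 127296288 in GRCm38, plus strand). It was at 75.2, 62.4 and 59.0 CPM in the naive control libraries and at 296 and 289 in the treated control libraries. In Sox2Hi tumours it was at 78.4, 60.8 and 59.9 CPM when naive and at 141 and 118 when treated. The naive libraries of both grafts overlapped, the treated Sox2Hi libraries lay above all naive ones, and the treated control libraries lay above these in turn. In control tumours the log2 fold change was 2.16 (SE 0.18, edgeR adjusted p = 2.3e-05), higher than that of 98.0% of genes of at least 5 CPM. The call held in all 22 alternative analyses, where the value ran from 1.52 to 2.58. Ddit3 shares 68 exon bases with Mars on the opposite strand, which had a mean of 121 reads against 2033 for Ddit3.

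Atf4, the transcription factor at the centre of the integrated stress response (chromosome 15, 80255184 to 80257541, plus strand), was at 42.5, 45.2 and 50.3 CPM in naive control and 92.8 and 90.5 in treated control libraries. Its Sox2Hi values were 59.8, 63.7 and 56.2 CPM when naive and 57.4 and 67.2 when treated. The treated control libraries were above all others, and the naive control libraries below all others. The log2 fold change on treatment of control tumours was 0.99 (SE 0.15, edgeR adjusted p = 0.00074). Without scaling factors, by library totals only, it was 0.35 with an adjusted p of 0.064. Trib3, whose protein restrains ATF4 and CHOP, gave only 8 to 35 reads per library. It was at 0.958, 1.04 and 0.965 CPM in naive control, 0.595 and 0.961 in treated control, 1.71, 1.48 and 1.38 in naive Sox2Hi and 1.81 and 1.86 in treated Sox2Hi libraries. All 5 Sox2Hi libraries were thus above all 5 control libraries, with the share of background given above.

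In the IRE1 branch, Ern1, the sensor gene, was at 5.64, 5.74 and 6.04 CPM in naive control and 5.14 and 5.76 in treated control libraries, with 4.48 to 5.60 in naive Sox2Hi and 6.16 and 6.73 in treated Sox2Hi libraries. Its log2 fold change in control tumours was -0.09 (SE 0.19, edgeR adjusted p = 0.71), and none of the 5 comparisons called it under the scaling used. By library totals it was called in 3 of them, at -0.73 (edgeR adjusted p = 0.0073) on treatment of control tumours, 0.64 (0.039) between treated grafts and 0.78 (0.044) in the interaction. Xbp1 (chromosome 11, 5520659 to 5525893, plus strand) was at 139, 122 and 111 CPM in naive control and 190 and 157 in treated control libraries. In Sox2Hi tumours Xbp1 was at 197, 202 and 166 CPM when naive and at 127 and 162 when treated. Its order thus ran opposite ways in the 2 grafts, with treated above naive in control and below naive in Sox2Hi tumours. The rise in control tumours was 0.48 on the log2 scale (SE 0.18, edgeR adjusted p = 0.041). That call was lost in 9 of the 10 fits that left out a library, with values from 0.27 to 0.48 and adjusted p from 0.043 to 0.30, and by library totals the value was -0.16. Each such fit recomputed the scaling: leaving out any of the 3 naive Sox2Hi libraries, which are not part of this comparison, gave 0.35.

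Dnajb9 encodes ERdj4, an ER co-chaperone and a target of spliced XBP1 (chromosome 12, 44205559 to 44210326, minus strand). It was at 230, 302 and 189 CPM in naive control and 558 and 747 in treated control libraries, and at 302, 268 and 193 in naive Sox2Hi and 294 and 382 in treated Sox2Hi libraries. The treated control libraries lay apart from all others, while the groups of Sox2Hi tumours overlapped. The log2 fold change in control tumours was 1.44 (SE 0.24, edgeR adjusted p = 0.0011), and all 22 alternatives called it, between 0.81 and 1.89. Reads of Dnajb9 per Hspa5 read, a ratio that needs no scaling, were 0.115 ± 0.0197 in naive control (SD, n = 3) and 0.223 ± 0.0206 in treated control libraries (SD, n = 2). The same ratio was 0.0895 ± 0.0184 in naive Sox2Hi (SD, n = 3) and 0.155 ± 0.00201 in treated Sox2Hi libraries (SD, n = 2), and in each graft the treated libraries did not overlap the naive ones.

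In the ATF6 branch and among the ER folding genes, Atf6 itself was at 19.8, 20.6 and 18.4 CPM in naive control and 26.1 and 27.7 in treated control libraries. Its Sox2Hi values, 26.5, 21.6 and 21.2 when naive and 24.7 in each treated library, overlapped. The rise in control tumours, 0.46 (SE 0.16, edgeR adjusted p = 0.038), was lost in 9 of 10 fits without a library, where the adjusted p ran from 0.036 to 0.30, and DESeq2 gave 0.47 with an adjusted p of 0.0523. Hspa5 encodes BiP, the main ER chaperone, which also holds the sensors inactive (chromosome 2, 34771970 to 34777547, plus strand). It was at 2048, 2217 and 1943 CPM in naive control, 2680 and 3151 in treated control, 2871, 2840 and 2784 in naive Sox2Hi and 1919 and 2450 in treated Sox2Hi libraries. Control treated and naive Sox2Hi tumours were thus both high, and naive control and treated Sox2Hi tumours both low. The control rise was 0.49 (SE 0.16, edgeR adjusted p = 0.028), lost in 8 of 10 fits without a library (adjusted p from 0.025 to 0.38), and by library totals the value was -0.14. The ER chaperone Hsp90b1, a further classical ATF6 target, was not called and was at 793 ± 180 CPM in naive control (SD, n = 3) and 573 ± 76 in treated control libraries (SD, n = 2; -0.47, SE 0.21, edgeR adjusted p = 0.073). Hspa5 reads per Hsp90b1 read were accordingly 2.75 ± 0.917 (SD, n = 3) and 5.09 ± 0.0938 (SD, n = 2).

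Herpud1, an ER membrane protein that helps remove misfolded proteins (chromosome 8, 94386438 to 94395377, plus strand), was at 132, 160 and 127 CPM in naive control and 225 and 219 in treated control libraries. In Sox2Hi tumours it was at 193, 210 and 175 CPM when naive and 156 and 178 when treated. Its pattern resembled that of Hspa5, with a Pearson correlation of log2 CPM of 0.88 over the 10 libraries. The control rise was 0.67 (SE 0.16, edgeR adjusted p = 0.0066). Without treated control replicate 2 it was 0.55 with an adjusted p of 0.061, and by library totals only 0.032. Pdia4, a protein disulfide isomerase that forms disulfide bonds in the ER, was at 49.5, 36.8 and 61.3 CPM in naive control, 39.0 and 33.9 in treated control, 55.4, 63.3 and 70.8 in naive Sox2Hi and 34.4 and 28.4 in treated Sox2Hi libraries. Its control groups overlapped (-0.43, SE 0.22, edgeR adjusted p = 0.11).

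**Figure D2:**
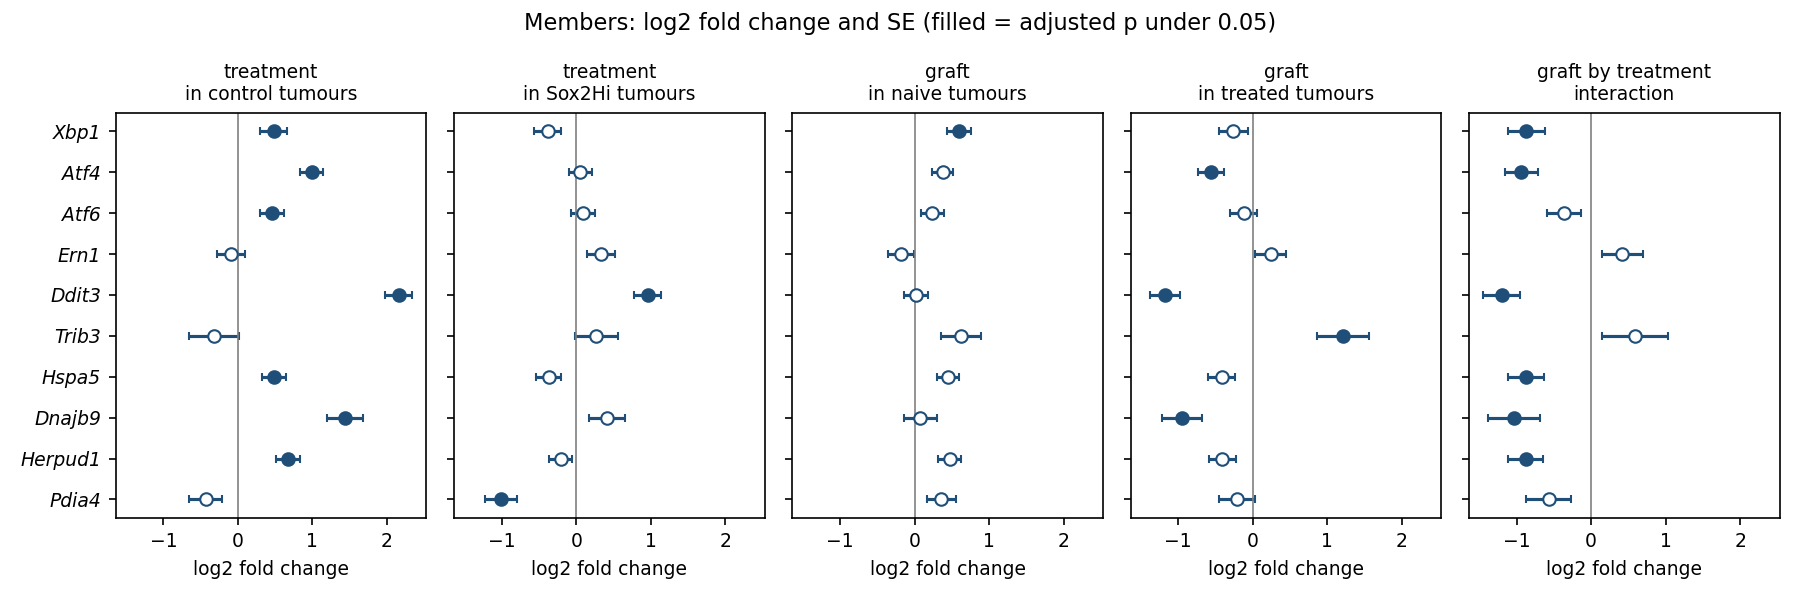
Log2 fold change (horizontal axes) with its SE for each gene in the 5 comparisons, where filled points have an adjusted p under 0.05. In control tumours 7 genes are filled to the right of 0, and in the interaction 6 are filled to the left.

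Promoter sequences are shown for Hspa5 and Herpud1 because these members, which moved together, are the ones whose promoter window held a searched stress element. The windows were the 250 bases before the RefSeq start (GRCm38.p6) of the 9 members with an entry, Atf6 having none. Both strands were searched for the ER stress element ERSE (CCAAT, 9 bases, CCACG), for ERSE-II (ATTGG, 1 base, CCACG), for the XBP1 site UPRE (TGACGTGG) and for the ATF4 and C/EBP composite site CARE (TGATGNAA). Of the 9 members, 2 held at least 1 match, and the shares over all 32851 promoters were 0.113% for ERSE, 0.0304% for ERSE-II, 0.563% for UPRE and 3.45% for CARE. In the Hspa5 stretch, from 70 to 41 bases before the start, which lies in an annotated Hspa5 exon of GENCODE M21, capitals mark the ERSE, here with its spacer. In the Herpud1 stretch, the last 130 bases before the start, capitals mark first a CARE on the minus strand and then an ERSE-II.
Hspa5, chr2:34772020-34772049, plus strand: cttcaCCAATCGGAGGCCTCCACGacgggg
Herpud1, chr8:94386299-94386428, plus strand: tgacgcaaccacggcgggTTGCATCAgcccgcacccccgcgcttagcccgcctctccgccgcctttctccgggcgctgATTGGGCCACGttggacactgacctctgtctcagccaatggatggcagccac
A match describes the letters only, and no binding was measured here.

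In Sox2Hi tumours treatment changed 2 of the 10 genes, Ddit3 upward and Pdia4 downward. By library totals Xbp1 (-0.67, edgeR adjusted p = 0.031) and Hspa5 (-0.67, 0.022) were called lower as well. Calls were rarer in this comparison, at 5.02% of all genes tested, and among genes of at least 5 CPM 7.24% were called higher and 4.04% lower. Ddit3 rose 1.95-fold (log2 0.96, SE 0.18, edgeR adjusted p = 0.012), with both treated libraries above all 3 naive ones. Without treated Sox2Hi replicate 1 the value was 0.82 (adjusted p = 0.079) and without replicate 2 it was 1.07 (adjusted p = 0.055). Pdia4 was 2.01-fold lower (log2 -1.01, SE 0.22, edgeR adjusted p = 0.025), again with no overlap. Leaving out naive Sox2Hi replicate 2 or 3 or treated Sox2Hi replicate 1 or 2 ended that call, with values of -0.95, -0.84, -1.15 and -0.89. The summed level of 11 fibroblast and endothelial genes was likewise 536 to 732 CPM in naive Sox2Hi and 149 to 362 in treated Sox2Hi libraries, and 331 to 829 in naive control and 137 to 170 in treated control libraries. None of these 11 genes was at 0 in all libraries, and their part in the Pdia4 values was not tested. The treatment log2 values of the other 8 genes lay between -0.38 for Xbp1 and 0.41 for Dnajb9.

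The difference between the grafts in the treatment response was tested as an interaction, the log2 fold change in Sox2Hi tumours minus that in control tumours. It was negative and called for 6 of the 10 genes, and positive and called for none. These were Ddit3 (-1.20, SE 0.25, edgeR adjusted p = 0.0082), Dnajb9 (-1.03, SE 0.35, 0.041), Atf4 (-0.94, SE 0.22, 0.012), Herpud1 (-0.88, SE 0.23, 0.017), Hspa5 (-0.87, SE 0.24, 0.020) and Xbp1 (-0.87, SE 0.25, 0.025). In the background 31.2% of all genes tested were called, and among genes of at least 5 CPM 15.4% were called higher and 10.8% lower. Among genes of at least 100 CPM on average over all 10 libraries, a class that treated values helped to set, 31.3% were called lower, with a median of -0.57. The Ddit3 interaction was called in all 21 alternatives, from -1.82 to -0.82. Atf4 lost the call without naive Sox2Hi replicate 2 (-0.70, adjusted p = 0.0516) and without treated Sox2Hi replicate 1 (-0.83, 0.059). By library totals only Ddit3 of the 6 was called. Atf4 was then at -0.58 (edgeR adjusted p = 0.057), Dnajb9 at -0.68 (0.095), Herpud1 at -0.52 (0.074), Hspa5 at -0.52 (0.0501) and Xbp1 at -0.52 (0.081), and Ern1 was called in the positive direction (0.78, 0.044). Calls other than those of Ddit3 and Atf4 were lost in 6 or 7 of the 10 fits without a library, with an adjusted p of at most 0.11 for Xbp1 and Hspa5, 0.20 for Dnajb9 and 0.083 for Herpud1.

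Between naive tumours 9 of the 10 genes had values above 0, that is higher in Sox2Hi tumours, and 7 had groups without overlap, 6 with Sox2Hi higher and Ern1 with Sox2Hi lower. Groups did not overlap for 34.5% of genes of at least 5 CPM. Their median log2 fold change was 0.37, against 0.037 over genes of at least 5 CPM. Of the 10, 1 was called, Xbp1, which was 1.52-fold higher in Sox2Hi tumours (log2 0.60, SE 0.16, edgeR adjusted p = 0.0484). With limma-voom 5 were called, but that fit called 31.7% of all genes tested. With all-gene scaling 3 were called, where 1.88% of all genes were, and several other settings called none. The background was 5.80% of all genes tested, with 2.12% called higher and 6.76% lower among genes of at least 5 CPM. Xbp1 had no overlap between the groups, but 8 of the 10 fits without a library lost the call, with values from 0.44 (without naive control replicate 3) to 0.68 and an adjusted p of up to 0.14. Same-numbered naive libraries of the 2 grafts correlated in their deviations from group means, but libraries of unlike numbers were not compared. The numbers also ran with Ddx3y, which had 4 and 6 reads in the naive replicate 1 libraries and 1007 to 3854 in the other naive libraries. With the number as a block 3 genes were called: Xbp1 (0.60, edgeR adjusted p = 0.037), Herpud1 (0.47, 0.042) and Hspa5 (0.46, 0.0488). That block used the numbers of the sample titles, and its fit called 8.37% of all genes tested. With the numbers of the descriptions, which are the same for naive but not for all treated libraries, no member and 2.68% of all genes were called, and Xbp1 was at 0.60 with an edgeR adjusted p of 0.061. Immunoglobulin and other plasma and B cell genes, 15 in all and none at 0 in all libraries, summed to 727, 4073 and 794 CPM in the naive Sox2Hi libraries and to 262 to 453 in naive control libraries. Without naive Sox2Hi replicate 2, the library with 4073, the log2 value of Xbp1 was 0.47 (edgeR adjusted p = 0.14), without replicate 1 it was 0.49 (0.11) and without replicate 3 0.59 (0.11). The part of the plasma and B cell genes in the Xbp1 values was not tested further.

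Between treated tumours, Ddit3, Dnajb9 and Atf4 were lower and Trib3 higher in Sox2Hi tumours. The background was 13.0% of all genes tested, with 10.1% called higher and 7.74% lower among genes of at least 5 CPM. Among genes of at least 100 CPM on average over all 10 libraries, the class of Ddit3 and Dnajb9, 28.2% were called lower, with a median of -0.49. Treated values helped to admit genes to this class, among them Ddit3. Ddit3 was 2.26-fold lower (log2 -1.18, SE 0.20, edgeR adjusted p = 0.013), Dnajb9 1.93-fold (-0.95, SE 0.27, 0.041) and Atf4 1.47-fold (-0.56, SE 0.17, 0.0499). In each case the 2 groups of 2 libraries did not overlap, as held for 62.9% of genes of at least 5 CPM. Trib3 was 2.32-fold higher (1.21, SE 0.35, edgeR adjusted p = 0.042) on 8 to 30 reads per library, and 14 of 21 alternatives lost that call. Ddit3 lost its call without treated Sox2Hi replicate 1 (-1.31, 0.059) or 2 (-0.98, 0.0545) and without treated control replicate 2 (-1.07, 0.053). Dnajb9 lost it in 7 and Atf4 in 9 of the 10 fits without a library, with an adjusted p of up to 0.23 and 0.26. By library totals both calls were lost, Dnajb9 at -0.56 (edgeR adjusted p = 0.083) and Atf4 at -0.16 (0.49), while Ern1 was called higher as given above. This comparison shares its treated control libraries with the treatment comparison in control tumours.

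The level of the members was also set against the 20 neutrophil genes of the same library, a ratio that no scaling affects and that was added without a test. Per 1000 CPM of these genes, Ddit3 was at 3.63 ± 0.78 CPM in naive control (SD, n = 3), 5.92 ± 0.125 in treated control (SD, n = 2), 3.86 ± 0.467 in naive Sox2Hi (SD, n = 3) and 5.26 ± 0.759 in treated Sox2Hi libraries (SD, n = 2). Both treated groups thus stayed above both naive groups for Ddit3. Dnajb9 was at 12.9 ± 0.723, 13.3 ± 3.22, 14.6 ± 0.533 and 13.7 ± 2.3 in the same order, and in each graft the ranges of treated and naive libraries overlapped. Hspa5 was at 114 ± 21.2, 59.2 ± 9.01, 167 ± 31.4 and 88.7 ± 13.7, Xbp1 at 6.86 ± 1.34, 3.50 ± 0.335, 11.0 ± 1.22 and 5.87 ± 0.915, and Atf4 at 2.60 ± 0.855, 1.86 ± 0.0383, 3.52 ± 0.572 and 2.53 ± 0.237. For these 3 genes the treated control group, high in CPM, had the lowest mean ratio. Abundant genes dominated the neutrophil sum. Il1r2 was at 10947, 14152 and 8477 CPM in naive control and 15770 and 19776 in treated control libraries. In the same libraries S100a8 was at 1769, 1778 and 1136 against 10526 and 7599, and S100a9 at 1284, 1171 and 835 against 8129 and 6571. The ratios therefore depend on these genes as well as on the members. The part of the neutrophil genes in the changes in CPM was not tested beyond these ratios. Reads of Ddit3 per Atf4 read were 1.44 ± 0.303 and 3.19 ± 0.00161 in naive control and treated and 1.11 ± 0.183 and 2.10 ± 0.496 in naive Sox2Hi and treated libraries, and treated exceeded naive in each graft.

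**Figure D3:**
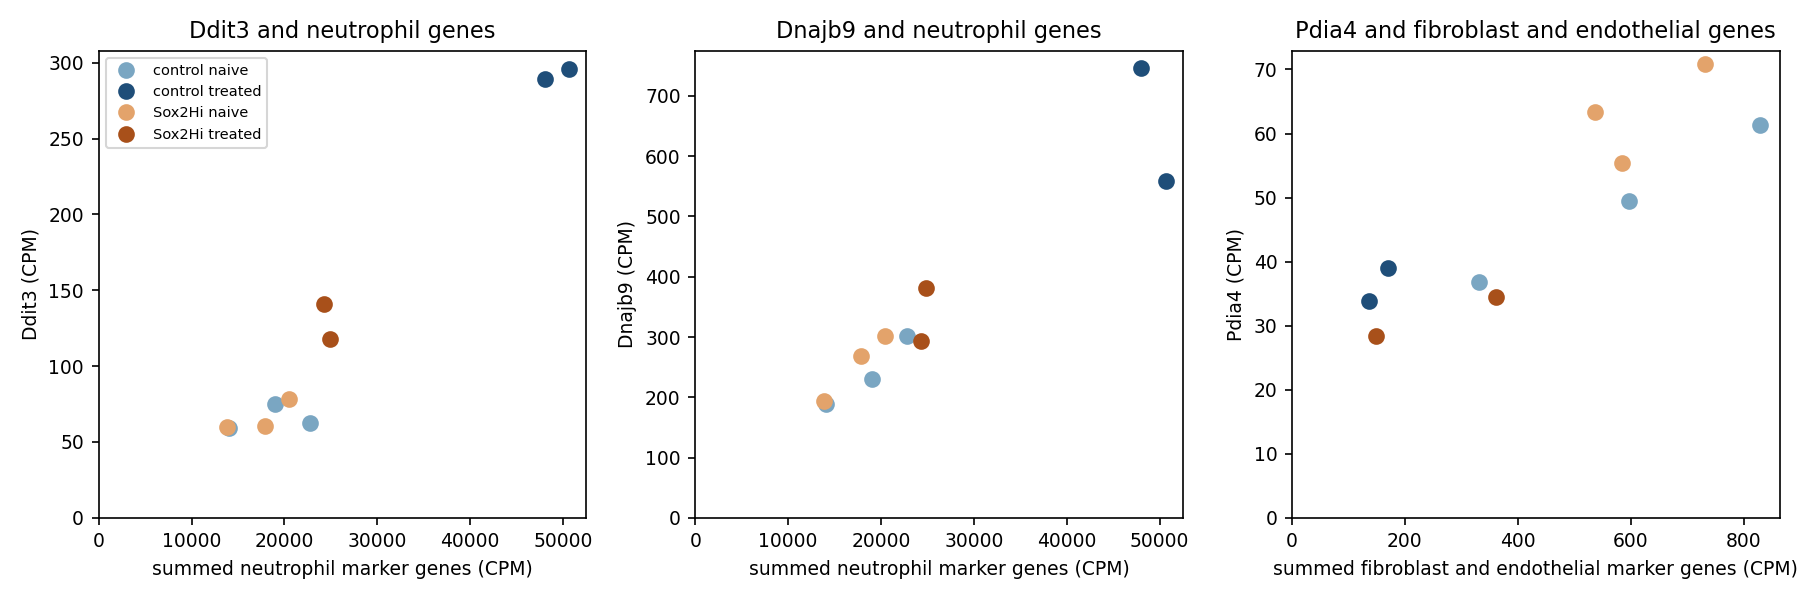
CPM of Ddit3 and Dnajb9 against the sum of 20 neutrophil genes, and of Pdia4 against the sum of 11 fibroblast and endothelial genes, with a point for each library. The treated control libraries, at 48024 and 50691 CPM of neutrophil genes, hold the highest Ddit3 and Dnajb9, and Pdia4 is highest where the fibroblast and endothelial sum is at least 536 CPM.

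The rest of the pathway was followed through lists that include the members. Their counts stand against the shares over all genes of at least 5 CPM given above, 28.0% higher and 27.4% lower in control treatment, 7.24% and 4.04% in Sox2Hi treatment and 15.4% and 10.8% in the interaction. Among genes of at least 100 CPM the shares called higher in control treatment and lower in the interaction were 59.8% and 31.3%. The sensors and their processing enzymes numbered 13, of which 4 rose and 2 fell on treatment of control tumours. Among these Creb3, an ER-bound transcription factor, rose by 0.58 (SE 0.15, edgeR adjusted p = 0.0081) and Mbtps1, the protease that cuts ATF6, fell by 0.50 (SE 0.18, 0.038). With scaling factors from all genes 6 were called higher and none lower, and Mbtps1 was at -0.084 (edgeR adjusted p = 0.75). Eif2ak3, the PERK gene, was at 9.23 ± 1.3 CPM in naive control (SD, n = 3) and 9.64 ± 0.89 in treated control libraries (SD, n = 2; 0.063, SE 0.23, 0.82). Of 8 genes around eIF2alpha, the 4 kinases, the 2 phosphatase subunits, Eif2s1 for eIF2alpha itself and Eif2b5 of its exchange factor, 2 rose and none fell. These were Ppp1r15a (1.19, SE 0.24, edgeR adjusted p = 0.0031) and Ppp1r15b (0.51, SE 0.17, 0.030), whose proteins bring the phosphatase that removes phosphate from eIF2alpha. Ppp1r15a was at 191, 230 and 173 CPM in naive control and 587 and 318 in treated control libraries, so the treated libraries differed widely from each other.

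ER-associated degradation, which exports misfolded proteins to the proteasome, had 9 of 19 genes called higher and none lower in control tumours, with a median of 0.51, against a median of -0.05 over genes of at least 5 CPM and 0.67 over those of at least 100 CPM. Edem1, which picks out misfolded glycoproteins, rose by 1.65 (SE 0.26, edgeR adjusted p = 0.00076) and Selenok, an ER membrane selenoprotein, by 1.09 (SE 0.18, 0.0011). In Sox2Hi tumours none of the 19 was called in either direction on treatment. The interaction was negative and called for 6 of the 19, among them Derl1, a channel component (-1.03, SE 0.21, edgeR adjusted p = 0.0068).

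Of 25 ER chaperones and oxidoreductases, 6 rose and 3 fell in control tumours, with a median of 0.017. Ero1l, the oxidase that drives disulfide bond formation and is also known to be induced by hypoxia, had the largest rise in the list. It was at 141, 100 and 120 CPM in naive control, 878 and 704 in treated control, 262, 157 and 149 in naive Sox2Hi and 343 and 444 in treated Sox2Hi libraries. The log2 fold change was 2.72 (SE 0.25, edgeR adjusted p = 4e-05) in control and 1.05 (SE 0.25, 0.033) in Sox2Hi tumours, and the interaction was -1.66 (SE 0.36, 0.0088). With all-gene scaling the Sox2Hi call of Ero1l was lost (0.86, edgeR adjusted p = 0.082). Txndc5, a disulfide isomerase, changed by -1.02 (SE 0.30, edgeR adjusted p = 0.017) and -1.30 (SE 0.30, 0.031) in the 2 grafts, and with all-gene scaling its control call was lost (-0.63, 0.17). In Sox2Hi tumours 5 of the 25 fell and 1 rose, with a median of -0.42 and 22 of 25 values below 0, against a median of 0.025 over genes of at least 5 CPM. Hsp90b1 was among those that fell (-0.89, SE 0.21, edgeR adjusted p = 0.032). The fibroblast and endothelial sum, lower in these libraries, is given above with Pdia4, and its part was not tested. Of 18 translocon and secretory genes under XBP1, 4 rose and 1 fell in control tumours, led by Sec11c of the signal peptidase (0.95, SE 0.20, edgeR adjusted p = 0.0037) and the translocon protein gene Serp1 (0.62, SE 0.16, 0.0093). In Sox2Hi tumours 1 of the 18 fell, the signal peptidase gene Spcs3 (-0.73, SE 0.17, edgeR adjusted p = 0.030), and none rose.

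Targets of ATF4 and CHOP moved both ways. Of 28 tested, 20 of them of at least 5 CPM, 9 rose and 10 fell in control tumours and the median was -0.21. The shares over all genes of at least 5 CPM were 28.0% higher and 27.4% lower. With all-gene scaling 10 were called higher and 3 lower, with a median of 0.22. The cystine transporter gene Slc7a11 rose by 1.72 (SE 0.26, edgeR adjusted p = 0.00066), from 611, 708 and 472 CPM in naive control to 1655 and 2283 in treated control libraries. Phgdh and Psat1, enzymes of serine synthesis, changed by -1.44 (SE 0.29, edgeR adjusted p = 0.0029) and -1.08 (SE 0.27, 0.0084), the second losing its call with all-gene scaling (-0.69, 0.10). Asns, asparagine synthetase, rose by 1.01 (SE 0.22, edgeR adjusted p = 0.0047), while Atf3 (0.24, SE 0.22, 0.35) and Chac1 (-0.26, SE 0.22, 0.33) were not called. In Sox2Hi tumours 3 rose and 2 fell (1 and 3 with all-gene scaling), and Phgdh was at -1.53 (SE 0.28, edgeR adjusted p = 0.012). Nupr1, a stress-induced chromatin protein gene, was higher in Sox2Hi tumours both when naive (1.24, SE 0.19, edgeR adjusted p = 0.038) and when treated (0.84, SE 0.23, 0.039). Between treated grafts 4 of the 28 were called higher, but none with all-gene scaling, where Nupr1 was at 0.50 (edgeR adjusted p = 0.26). Of 12 aminoacyl-tRNA synthetase genes under ATF4, 2 rose and 3 fell in control tumours, with Nars at 0.76 (SE 0.15, edgeR adjusted p = 0.0027) and Yars at -0.62 (SE 0.18, 0.016). With all-gene scaling 2 of the 12 were called higher and none lower, with a median of 0.14, and Yars was at -0.20 (edgeR adjusted p = 0.45).

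Of 10 death genes linked to ER stress, which include Ero1l, 5 rose and none fell in control tumours, and 2 rose in Sox2Hi tumours, Ero1l and Pmaip1. With all-gene scaling 6 were called higher in control and none in Sox2Hi tumours. Pmaip1, which encodes the pro-apoptotic protein NOXA, was at 330, 354 and 266 CPM in naive control and 1086 and 889 in treated control libraries, and at 399, 377 and 297 in naive Sox2Hi and 674 and 559 in treated Sox2Hi libraries. It rose by 1.64 (SE 0.19, edgeR adjusted p = 0.00013) in control and by 0.78 (SE 0.19, 0.036) in Sox2Hi tumours, with an interaction of -0.86 (SE 0.27, 0.033). With all-gene scaling its Sox2Hi value was 0.58 (edgeR adjusted p = 0.071). Bcl2l11, the gene of the pro-apoptotic protein BIM, had an interaction of -0.99 (SE 0.31, edgeR adjusted p = 0.032).

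**Figure D4:**
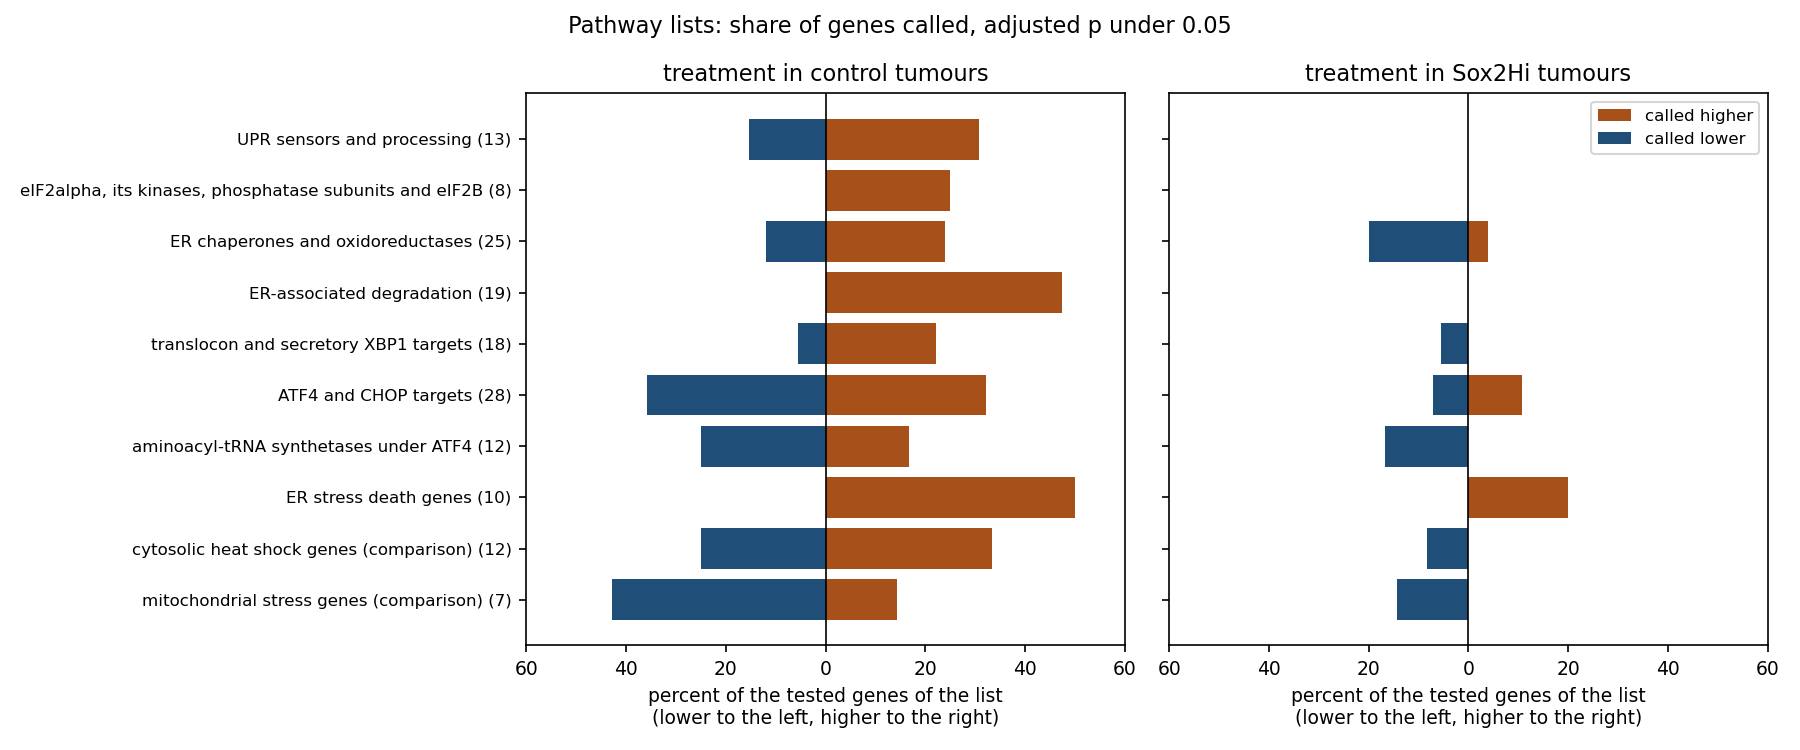
Percent of the tested genes of each list (number in brackets) called higher, to the right, and lower, to the left, on treatment of control and of Sox2Hi tumours. Under the scaling used, in control tumours ER-associated degradation and death genes have calls to the right and none to the left, and the ATF4 and CHOP targets have calls on both sides.

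Under scaling factors from all genes, which follow the background of silent genes and move the median of genes of at least 5 CPM to 0.36, the same number of members, 7, rose in control tumours. Under this scaling 40.0% of genes of at least 5 CPM were called higher and 11.0% lower, and 70.5% and 4.05% of those of at least 100 CPM. ER-associated degradation then had 12 of 19 genes higher, the ER chaperones 8 higher and none lower of 25, and the translocon and secretory genes 10 higher and none lower of 18. The interaction then had 8 of the 10 members lower, where 39.2% of genes of at least 5 CPM (median -0.79) and 73.5% of those of at least 100 CPM (median -1.20) were called lower.

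The genes most alike to the members over the 10 libraries were sought among 7077 genes whose mean reached 10 CPM. For Ddit3 these were Slc6a13, a GABA transporter gene, with a Pearson correlation of log2 CPM of 0.997, the nuclear RNA Malat1 at 0.993, and the phosphatase gene Mtm1 at 0.991. Malat1 was at 1136, 997 and 953 CPM in naive control, 3255 and 3103 in treated control, 1177, 1090 and 1070 in naive Sox2Hi and 1669 and 1597 in treated Sox2Hi libraries, the same order of groups as Ddit3. For Xbp1 they included the neutrophil surface gene Cd177 at 0.907 and Arf2 at 0.894, and for Hspa5 Arf2 at 0.920 and Tug1 at 0.910. All these values rest on the same 10 libraries and 4 groups. Among the members themselves Ddit3 and Dnajb9 were the most alike at 0.90, and Dnajb9 and Pdia4 the least at -0.69.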

How the data were processed

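RNA of Tomato+ tumour neutrophils was sequenced in 10 libraries, made per the labels' protocols with a kit for single cells or low input. The authors deposited 1 table of whole-number estimated counts per gene, in which values of 7 digits end in 0. The submitters' processing notes name kallisto 0.44.0 and the genome build mm10; strandedness is not given in the sources used here. Of 55481 entries, 96 sequences that are not mouse genes (at most 0.00277% of a library) were left out. Symbols came from GENCODE M21 (GRCm38). Ddit3 has a further identifier with 0 reads, which was not used.

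All libraries entered 1 model with 4 groups (6 residual degrees of freedom) in edgeR 4.0.16 (R 4.3.3), with filterByExpr (29648 genes), TMM factors from 11274 genes whose mean reached 5 CPM, and the quasi-likelihood test. Common biological coefficient of variation was 0.235. SEs were derived from the log2 fold change and the F statistic. Genes were called at a Benjamini-Hochberg adjusted p under 0.05 over all genes tested. CPM uses the same factors.

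The members and lists were chosen with earlier results of these data known, and their counts are descriptions. Named in the text are the 10 members, Atf3, Ppp1r15a, Eif2ak3, Asns, Chac1 and Hsp90b1, and from each list up to 2 called genes per direction with the largest change and 10 CPM or more on average; Malat1 values were singled out afterwards. For Xbp1, Hspa5 and Ddit3 the 3 most alike genes were sought, of which some are not reported here. Deviations from group means of same-numbered naive libraries correlated at 0.273, 0.324 and 0.474. Pairs of the same title number that include a treated library were at -0.28 to 0.247. Libraries of unlike numbers were not correlated, so a pairing was not shown and the block served as an alternative only. The labels leave the meaning of a number unsaid. Replicates differed beyond sampling noise in every pair (chi-square per degree of freedom at least 12.5). The fit was also run on simulated counts with a common spread for all genes and neither background reads nor a shift in composition. That run could not check the choice of scaling. Alternatives included other scalings, filters, DESeq2 1.42.0, limma 3.58.1, replicate blocks, background subtraction, a Ddx3y covariate and leaving out each library.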

Additional observations from a re-analysis of the deposited data

Results flagged for a closer look

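The treatment response differed between the grafts by the interaction test of the edgeR model for 6 of the 10 genes. The difference in log2 fold change, Sox2Hi minus control tumours, was -1.20 for Ddit3, -1.03 for Dnajb9, -0.94 for Atf4, -0.88 for Herpud1, -0.87 for Hspa5 and -0.87 for Xbp1. Over all genes tested 31.2% were called in this test, and among genes of at least 100 CPM, the class of all these but Atf4, 31.3% were called lower. That class was set by the mean over all 10 libraries, and Ddit3 entered it only through treated libraries. The call of Ddit3 held in each of the 10 fits that left out a library. The others were lost in 2 (Atf4), 6 (Xbp1 and Herpud1) and 7 (Hspa5 and Dnajb9) of these fits.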

How the results depend on the processing

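Across 1085 comparisons of a gene's value with an alternative, 877 kept direction and side of the threshold, 148 lost a call, 22 gained a call and 38 changed sign. For treatment of control tumours 7 genes were called, and 4 with the groups compared alone. Treatment of Sox2Hi tumours gave 2, and 4 by library totals. The naive grafts gave 1; all-gene scaling and the replicate block by title number gave 3 each (with 558 and 2483 calls over all genes), limma-voom 5 (with 9393), and RLE factors, library totals, no filter, the groups alone, the replicate block by description number, background subtraction and the Ddx3y covariate 0. The treated grafts gave 4; no filter, limma-voom and the Ddx3y covariate gave 2, the description block and background subtraction 1, and the groups alone 0. The interaction gave 6, and 2 by library totals (Ddit3 lower and Ern1 higher) or background subtraction. Leaving out each library gave 3 to 7, 0 to 2, 0 to 1, 0 to 4 and 1 to 6 calls in this order. Over all alternatives the calls across all genes ran from 6368 to 21614, 178 to 3524, 3 to 9393, 2 to 10938 and 1825 to 12465. With the replicate block by title number Xbp1 (0.40, edgeR adjusted p = 0.065) and Atf6 (0.41, 0.057) lost their call in control tumours, and no further call was lost. The fit of the groups alone was not run for the interaction, where it equals the fit reported. Values changed sign as follows, the cause not tested except where named. By library totals, treatment of control tumours gave Xbp1 -0.16, Atf6 -0.18 and Hspa5 -0.14, treatment of Sox2Hi tumours Atf4 -0.23, Atf6 -0.18 and Trib3 -0.010, the treated grafts Xbp1 0.13, Atf6 0.29 and Pdia4 0.21, and the interaction Atf6 0.0041. With all-gene scaling, treatment gave Ern1 0.33 and Trib3 0.11 in control and Atf4 -0.15 and Atf6 -0.10 in Sox2Hi tumours, Ern1 was 0.10 and -0.10 in the naive and treated grafts, and the interaction was -0.21 for Ern1 and -0.041 for Trib3. With the background subtracted, treatment of control tumours gave Ern1 0.49 and Trib3 1.02, the naive grafts Ern1 0.22, Ddit3 -0.076 and Dnajb9 -0.031, the treated grafts Ern1 -0.0033, and the interaction Ern1 -0.22 and Trib3 -0.84. In the naive grafts Ddit3 was -0.13 with limma-voom, -0.012 with the groups alone, and -0.20 to -0.0026 without Sox2Hi naive replicate 1, 2 or 3 or control naive replicate 2 or 3. Dnajb9 there was -0.15 to -0.041 without Sox2Hi naive replicate 1 or 2 or control naive replicate 3, and up to 0.28 without other libraries. Without Sox2Hi treated replicate 2 Atf4 was -0.072 on treatment of Sox2Hi tumours, against up to 0.17 without other libraries, and without control treated replicate 2 Atf6 was 0.049 in the treated grafts. Depth limits Trib3, at 8 to 35 reads per library, and the 2 libraries in each treated group limit all comparisons that use them.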

Other observations

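Stress genes outside the ER were followed as 2 comparison lists. Of 12 cytosolic heat shock genes, 4 rose and 3 fell on treatment of control tumours, with a median log2 fold change of -0.044. Over genes of at least 5 CPM 28.0% were called higher and 27.4% lower. With scaling factors from all genes 5 of the 12 were called higher and none lower, with a median of 0.35, and Hsp90ab1 (-0.35, edgeR adjusted p = 0.26) and Hspa1b (-0.44, 0.34) lost their calls. Hsp90aa1, an inducible HSP90 gene, rose by 0.64 (SE 0.19, edgeR adjusted p = 0.016), and Hsp90ab1, its constitutive counterpart, was at -0.76 (SE 0.19, 0.0088). The near-identical genes Hspa1a (1.05, SE 0.31, edgeR adjusted p = 0.017) and Hspa1b (-0.83, SE 0.32, 0.0496) are uncertain, because counting can split reads between them.

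Of 7 mitochondrial stress genes 1 rose and 3 fell, with a median of -0.50. With all-gene scaling 2 of the 7 were called higher and none lower, with a median of -0.11, and Hspe1 (-0.46, edgeR adjusted p = 0.21) and Lonp1 (-0.33, 0.33) lost their calls. The mitochondrial HSP70 gene Hspa9 rose by 0.66 (SE 0.14, edgeR adjusted p = 0.0037), and the chaperonin subunit gene Hspe1 and the protease gene Lonp1 were at -0.86 (SE 0.23, 0.0099) and -0.74 (SE 0.23, 0.021). On treatment of Sox2Hi tumours 1 of the 12 heat shock genes fell, Hsph1 (-1.04, SE 0.22, edgeR adjusted p = 0.020), and 1 of the 7 mitochondrial genes, Hspd1 (-1.04, SE 0.20, 0.014). None of either list rose there, where 7.24% of genes of at least 5 CPM were called higher and 4.04% lower.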
